A study of Mus musculus with 6 samples.

Results

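The 9 genes described here encode enzymes of hepatic glycogen synthesis and breakdown and their regulators, and were chosen by name out of 28880 genes in the deposited table, in which each symbol occurs in a single row. They are Gyg1, Ugp2, Gys2 and Gbe1 on the side of synthesis, Pygl and Phka2 on the side of breakdown, and Ppp1r3b, Ppp1r3c and Ppp1r3g, which bring a phosphatase to glycogen. RNA of whole liver was measured in 3 mice after acute ethanol exposure and in 3 control mice, all wild-type male C57BL/6J animals aged 6 to 8 weeks, with 1 library per mouse and a single batch label. The ethanol-exposed mice were fasted for 12 h, were then dosed once by mouth with ethanol (50%), of which they received 6 g/kg, and gave liver tissue 24 h after it. The control mice received no ethanol, and the sources used here do not give their fasting state or a vehicle gavage, so an effect of ethanol and an effect of the fast cannot be told apart. The comparison asks how RNA of the glycogen machinery differed between these groups.

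Glycogen is the branched glucose store of the hepatocyte. Glycogenin (Gyg1) starts the chain, UDP-glucose pyrophosphorylase (Ugp2) makes the activated glucose, liver glycogen synthase (Gys2) extends the chain and the branching enzyme (Gbe1) introduces branches, whereas liver glycogen phosphorylase (Pygl) releases glucose 1-phosphate when it has been phosphorylated by phosphorylase kinase, of which Phka2 is the liver alpha subunit. Protein phosphatase 1 (PP1) opposes this phosphorylation and activates the synthase, and the targeting subunits Ppp1r3b, Ppp1r3c and Ppp1r3g hold PP1 on the glycogen particle. Feeding and fasting shift this system mainly through insulin, glucagon and adrenaline.

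Between 60514417 and 74210869 reads per library were counted on genes, and the 3 mice per group limited the precision. Counting error adds to this for the low genes described, of which Gyg1 had 155 to 159 counts and Nhlrc1 20 to 35 counts in the ethanol libraries. Levels of a gene across libraries are in CPM, a count divided by the library size that edgeR's TMM factors correct (0.768 to 0.836 in ethanol-exposed and 1.26 to 1.27 in control mice), and levels of different genes as FPKM, the authors' length-scaled value, which does not contain those factors. A gene is said to have risen or fallen where its adjusted p was under 0.05 (quasi-likelihood test of edgeR, two-sided, adjusted by Benjamini-Hochberg across all 16717 genes that passed a filter on low counts), and is called a DEG where its log2 fold change was also beyond 1. SE is the standard error of a log2 fold change. Ethanol replicate 3 stood apart from ethanol replicates 1 and 2, and results that rest on it are given with and without it. The hepatocyte markers were abundant in every library, led by Alb at 24933 to 31582 FPKM. Summed levels of marker lists are given as FPKM divided by the TMM factor, in ethanol-exposed and then in control mice. They were 55855 to 57528 and 29910 to 34705 for the 9 hepatocyte markers (6 rose, 0 fell), 30.5 to 41.1 and 41.9 to 45.0 for the 6 Kupffer cell markers (2 fell), 16.5 to 34.8 and 16.5 to 19.5 for the 6 endothelial markers (1 rose, 2 fell), and 17.3 to 20.7 and 14.6 to 17.6 for the 6 stellate cell markers (1 rose, 1 fell). They were 656 to 978 and 159 to 199 for the 6 erythroid markers (4 of 5 tested rose), 7.83 to 9.70 and 1.87 to 3.29 for the 5 cholangiocyte markers (1 of 4 tested rose), 2.81 to 17.6 and 0.306 to 0.608 for the 6 neutrophil markers (3 of 3 tested rose, with Mpo and Elane at 0 in every ethanol library), and 0.305 to 1.15 and 0.735 to 1.23 for the 6 lymphocyte markers (1 of 5 tested fell). The higher cholangiocyte sum rested on Sox9, at 5.19 to 6.45 against 1.21 to 1.46 FPKM. The log2 fold changes of Krt19 (-0.80), Krt7 (-0.20) and Epcam (0.64) did not pass, and Cftr was at 0 in every ethanol library. In ethanol-exposed mice Lyve1 was the largest part of the endothelial sum, at 6.01 to 17.0 against 1.37 to 1.48 FPKM in control mice. Clec4g (2.50 to 3.84 against 9.22 to 12.5 FPKM) and Kdr (log2 fold change -1.57) fell. Stab1 (-0.20), Stab2 (-0.24) and Pecam1 (0.29) did not pass. The stellate sum was mostly Dcn, which rose by 0.43. Col1a1 (-1.90) fell, and Lrat (-0.49), Reln (0.17), Pdgfrb (-0.14) and Des (-0.41) did not pass. Without the TMM factors the hepatocyte sums overlapped, at 42870 to 47512 against 37678 to 43913 FPKM, and the stellate sum was lower in ethanol-exposed mice, at 13.3 to 17.3 against 18.4 to 22.1 FPKM. The part of these differences in the results was not tested, and in bulk liver fewer cells of a type and less RNA per cell cannot be told apart.

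In acute ethanol-exposed mice, RNA of glycogen synthase and of 1 targeting subunit was higher after TMM scaling, and RNA of phosphorylase and of glycogenin was lower. With library size alone the higher levels did not pass the test, whereas the lower ones did. All 9 genes passed the filter on low counts, 2 rose (Gys2 and Ppp1r3b), 2 fell (Pygl and Gyg1) and 5 did not pass the test. Among all genes tested, 21.5% rose and 21.5% fell, so that 43.0% passed, against 4 of 9 here. The median log2 fold change of the 9 genes was 0.02, and that of all genes was -0.04. Gys2 was the 1 DEG among them, where 24.2% of all genes were DEGs (10.4% higher and 13.8% lower), and without ethanol replicate 2 it was at 0.97, under that threshold. The CPM of the groups did not overlap for the same 4 genes, as for 59.0% of all genes (28.0% higher and 31.0% lower). The share of these genes that passed was thus near the background, and what follows describes which of them moved.

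**Figure D1:**
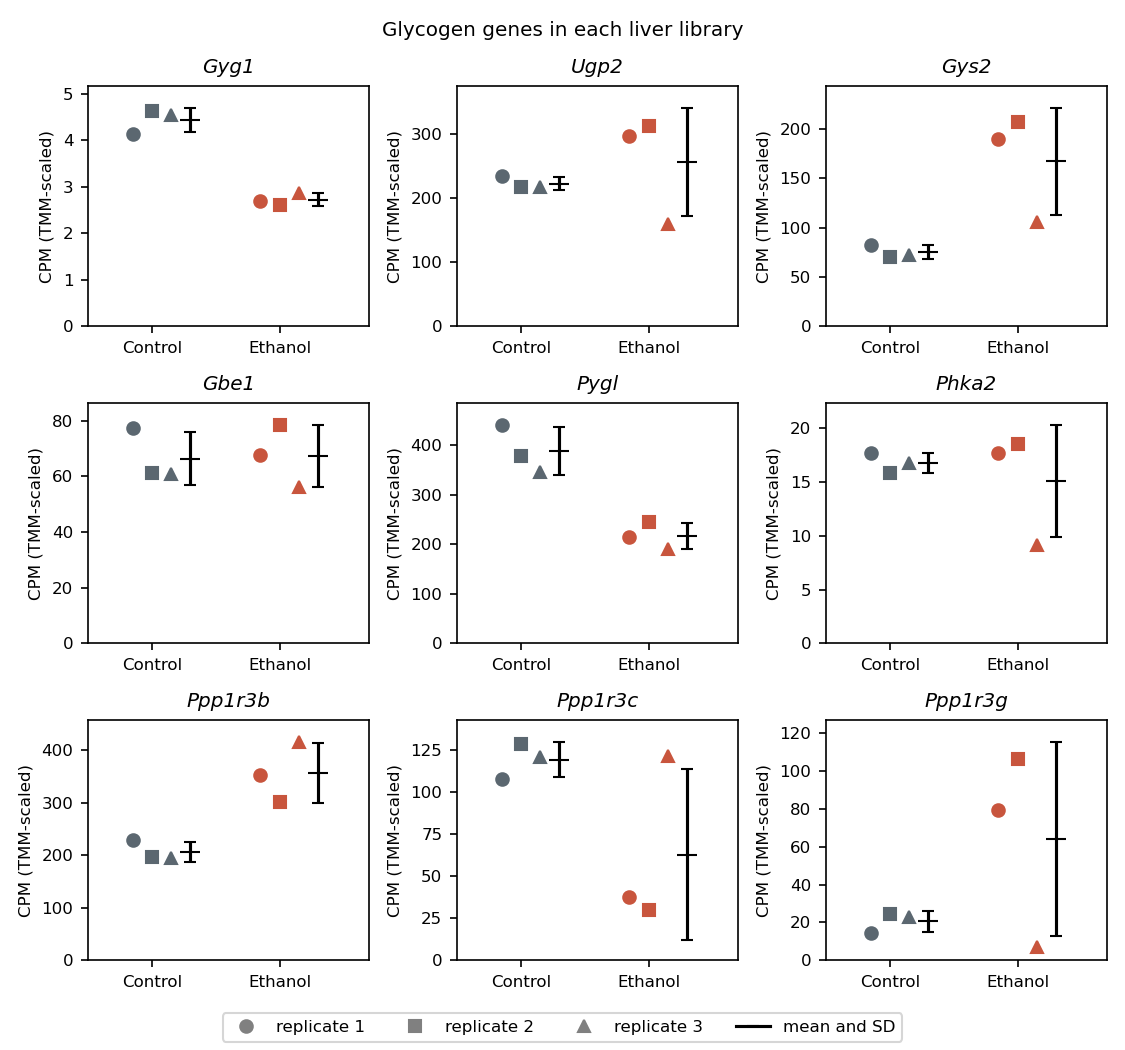
TMM-scaled CPM of the 9 glycogen genes in each library (vertical axes start at 0; grey, control mice; red, ethanol-exposed mice; circle, square and triangle, replicates 1, 2 and 3; black bars, mean and SD of 3 mice). Gys2 and Ppp1r3b lie higher and Pygl and Gyg1 lower in all ethanol-exposed mice, while ethanol replicate 3 lies away from the other ethanol libraries for Ppp1r3c and Ppp1r3g.

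Gys2 (ENSMUSG00000030244, chromosome 6, 142368339 to 142418835), the synthase of liver, was at 189, 207 and 106 CPM in ethanol replicates 1, 2 and 3 and at 82.9, 69.9 and 72.8 CPM in the control mice. The groups did not overlap, and replicate 3 was the lowest of the ethanol libraries. The mean was 167 ± 54.1 CPM (SD, n = 3) against 75.2 ± 6.83 CPM (SD, n = 3), and the log2 fold change was 1.15 (SE 0.24, edgeR adjusted p = 0.00842). This change was relative to the normalization. With library size alone, the median of all genes moved by -0.67, 55.7% of genes passed (7.39% rose and 48.3% fell), 37.3% were DEGs, and Gys2 was at 0.50 (adjusted p = 0.143), which is 1.21 above that median. On the FPKM scale ethanol replicate 3 (28.5) lay below all control mice (31.0 to 36.9).

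Pygl (ENSMUSG00000021069, chromosome 12, 70237585 to 70278262), which catalyses the release of glucose from glycogen, was at 215, 245 and 191 CPM in ethanol replicates 1, 2 and 3. In control replicates 1, 2 and 3 it was at 441, 379 and 346 CPM, above every ethanol library. Pygl fell by 0.84 on the log2 scale (SE 0.14, edgeR adjusted p = 0.00357), that is 1.79-fold. Both calls held with every library left out in turn (adjusted p of 2.43e-05 to 0.0416 for Gys2). That of Pygl also held under every scaling, and over all alternatives Pygl had a log2 fold change of -1.51 to -0.74 (adjusted p of 2.41e-06 to 0.0187).

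Because both genes are read in the same library, the ratio of Gys2 to Pygl does not depend on the scaling. Per unit length, the ratio of Gys2 to Pygl FPKM was 2.29, 2.19 and 1.44 in ethanol replicates 1, 2 and 3 and 0.488, 0.478 and 0.546 in control replicates 1, 2 and 3. Per unit length, synthase RNA thus exceeded phosphorylase RNA in all ethanol-exposed mice, and the reverse held in all control mice. The log2 ratio was 0.95 ± 0.37 against -0.99 ± 0.10 (SD, n = 3 per group), a difference of 1.94 (exact permutation test, two-sided, p = 0.1, the smallest that 3 against 3 mice allow, adjusted p = 0.12 over 6 such measures). The difference was 1.82 to 2.15 with each library left out in turn, and 1.94 with CPM in place of FPKM. Which of the 2 genes was higher rests on the length scaling of FPKM. In CPM, which is not scaled to length, Pygl was above Gys2 in every library, at 191 to 245 against 106 to 207 in ethanol-exposed mice.

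**Figure D2:**
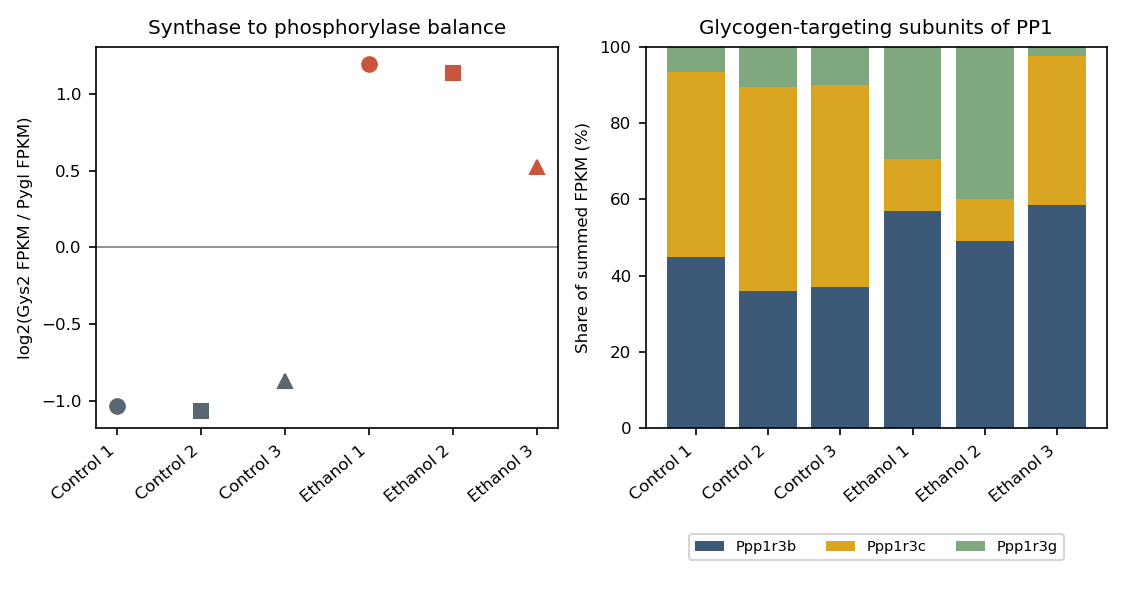
Left, log2 ratio of Gys2 FPKM to Pygl FPKM in each library (grey, control; red, ethanol; markers give the replicate); right, share of Ppp1r3b, Ppp1r3c and Ppp1r3g in their summed FPKM, in percent, as stacked bars, 1 per library. The ratio is above 0 in the 3 ethanol libraries and below 0 in the 3 control libraries, and the Ppp1r3c share runs from 11.1% to 39.0% in ethanol and from 48.5% to 53.7% in control libraries.

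Of the remaining enzymes of synthesis, Gyg1 (ENSMUSG00000019528, chromosome 3, 20176248 to 20209481), the primer of the chain, was the lowest of the 9 genes at 0.826 to 0.878 FPKM in ethanol-exposed and 2.09 to 2.32 FPKM in control mice. It had 2.69, 2.60 and 2.88 CPM in ethanol replicates 1, 2 and 3 and 4.14, 4.63 and 4.54 CPM in control replicates 1, 2 and 3. The groups did not overlap and the spread within each was narrow. Gyg1 fell by 0.70 on the log2 scale (SE 0.18, edgeR adjusted p = 0.0176). The call was lost without control replicate 2 (adjusted p = 0.0716) or control replicate 3 (adjusted p = 0.0693), with little change in the fold change (-0.68 and -0.69).

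Ugp2 (ENSMUSG00000001891, chromosome 11, 21271138 to 21321201), which supplies UDP-glucose, had the highest FPKM of the 9 genes in every library but ethanol replicate 3, where Ppp1r3b was higher. It was at 297, 313 and 160 CPM in ethanol replicates 1, 2 and 3 and at 234, 217 and 217 CPM in control replicates 1, 2 and 3. Replicates 1 and 2 of the ethanol group lay above and replicate 3 below all control mice, and the log2 fold change was 0.20 (95% interval -0.37 to 0.77, adjusted p = 0.522). Without ethanol replicate 3, Ugp2 rose by 0.46 (edgeR adjusted p = 0.00192), whereas without replicate 1 or 2 its log2 fold change was 0.089 and 0.037 (adjusted p = 0.828 and 0.921). Gbe1 (ENSMUSG00000022707, chromosome 16, 70110837 to 70366604), the branching enzyme, was at 67.6, 78.3 and 56.0 CPM in ethanol replicates 1, 2 and 3 and at 77.3, 61.2 and 60.7 CPM in control replicates 1, 2 and 3. Its groups overlapped, with a log2 fold change of 0.02 (95% interval -0.36 to 0.39, adjusted p = 0.931).

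Phka2 (ENSMUSG00000031295, chromosome X, 159285162 to 159381874), the regulatory alpha subunit through which phosphorylase kinase is switched on in liver, was at 17.7, 18.5 and 9.11 CPM in ethanol replicates 1, 2 and 3. In control replicates 1, 2 and 3 it was at 17.7, 15.9 and 16.7 CPM. Ethanol replicate 3 was the lowest, the other libraries lay between 15.9 and 18.5, and Phka2 did not pass the test (log2 fold change -0.15, 95% interval -0.75 to 0.45, adjusted p = 0.656). Without ethanol replicate 3 its log2 fold change was 0.12 (adjusted p = 0.323).

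The targeting subunits of PP1 differed from each other. Ppp1r3b (ENSMUSG00000046794, chromosome 8, 35842893 to 35855293), the subunit long known from liver, was at 354, 302 and 416 CPM in ethanol replicates 1, 2 and 3 and at 229, 197 and 195 CPM in control replicates 1, 2 and 3. All ethanol libraries lay above all control libraries. Ppp1r3b rose by 0.79 on the log2 scale (SE 0.15, edgeR adjusted p = 0.00511). With library size alone it was at 0.12 (adjusted p = 0.495), which is 0.83 above the median of all genes. In FPKM the groups overlapped, at 37.9 to 48.0 against 36.8 to 43.5.

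Ppp1r3c (ENSMUSG00000067279, chromosome 19, 36709131 to 36714053), a subunit found in many tissues and also known as PTG, was at 37.6 and 29.9 CPM in ethanol replicates 1 and 2 but at 122 CPM in replicate 3. The control mice were at 108, 129 and 121 CPM, so that replicate 3 lay among them. Ppp1r3c did not pass the test over all libraries (log2 fold change -0.92, 95% interval -2.09 to 0.24, adjusted p = 0.172). Without ethanol replicate 3 it fell by 1.82 (edgeR adjusted p = 4.23e-05), whereas without replicate 1 or 2 its log2 fold change was -0.67 and -0.60 (adjusted p = 0.369 and 0.334). In FPKM, which lacks the TMM factors, the groups did not overlap, at 8.55 to 32.0 against 46.9 to 55.8, and with library size alone Ppp1r3c was at -1.62 (adjusted p = 0.0241).

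Ppp1r3g (ENSMUSG00000050423, chromosome 13, 36142822 to 36154371), a subunit tied to the response of hepatic glycogen to feeding, showed the widest spread of the 9 genes on the log2 scale. Its SD of log2 CPM, with 0.5 added to each CPM, was 2.08 in ethanol-exposed mice. It was at 79.0, 106 and 7.15 CPM in ethanol replicates 1, 2 and 3 and at 14.4, 24.7 and 23.0 CPM in control replicates 1, 2 and 3. Replicates 1 and 2 lay above all control mice and replicate 3 below all of them. The log2 fold change was 1.63 (95% interval -0.24 to 3.50, adjusted p = 0.136) over all libraries. It was 1.46 and 1.06 without ethanol replicate 1 or 2 (adjusted p = 0.269 and 0.359), and 2.17 (edgeR adjusted p = 0.000240) without ethanol replicate 3. Without that library 4 of the 9 genes rose and 3 fell, while 52.1% of all genes passed (24.7% rose and 27.4% fell), and the comparison then rests on 2 ethanol-exposed mice.

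Within a library, Ppp1r3b made up 56.9%, 49.1% and 58.6% of the summed FPKM of the 3 subunits in ethanol replicates 1, 2 and 3 and 45.0%, 35.9% and 37.1% in control replicates 1, 2 and 3. In FPKM it was the most abundant subunit in all ethanol-exposed mice, and Ppp1r3c was in all control mice. The order in control mice rests on the length scaling. In CPM, Ppp1r3b was above Ppp1r3c in all control mice, at 195 to 229 against 108 to 129. The Ppp1r3b share was 15.6 percentage points higher in ethanol-exposed mice and the Ppp1r3c share differed by -30.4 percentage points (exact permutation test, two-sided, p = 0.1 for each, the smallest possible, adjusted p = 0.12 over 6 measures). The Ppp1r3g share was 29.3%, 39.8% and 2.32% in ethanol replicates 1, 2 and 3 and 6.54% to 10.4% in control mice (exact p = 0.4, adjusted p = 0.4). Without ethanol replicate 3, the Ppp1r3c share differed by -39.2 percentage points and the Ppp1r3g share by 25.5 percentage points, the latter in place of 14.8 over all libraries and 6.81 without ethanol replicate 2. The direction of the subunits' summed level depended on the scaling, with 72.5 to 81.9 FPKM in ethanol-exposed against 96.8 to 104 FPKM in control mice as deposited, and 92.3 to 107 against 76.5 to 82.5 after division by the TMM factors.

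**Figure D3:**
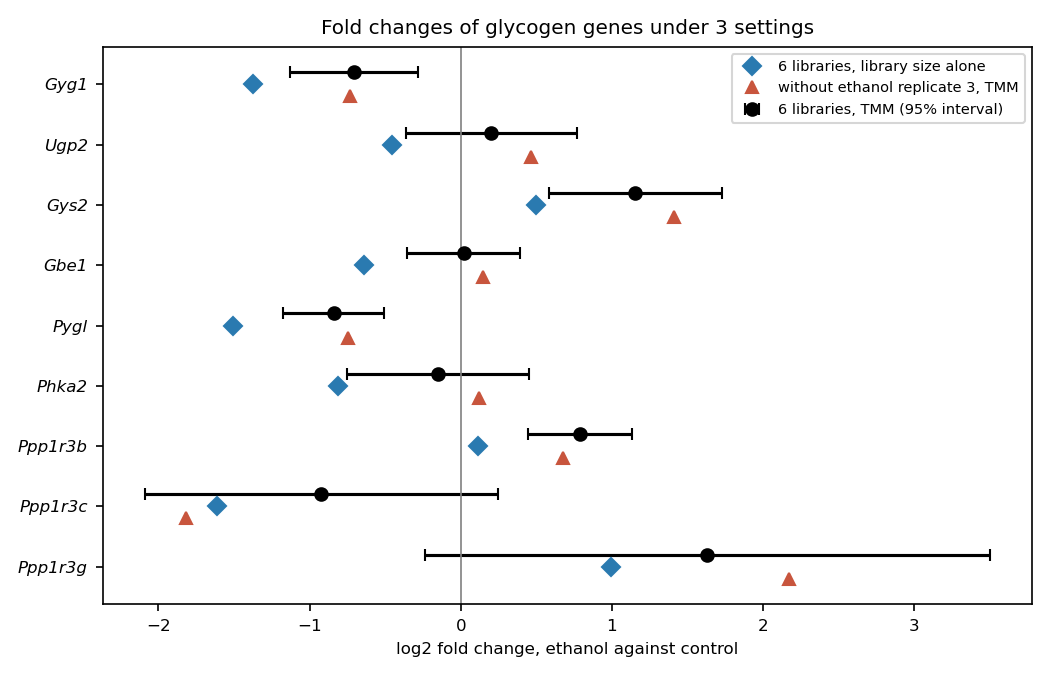
Log2 fold change of each glycogen gene, ethanol against control (black, 6 libraries with TMM scaling and 95% interval; blue, 6 libraries scaled by library size alone; red, TMM scaling without ethanol replicate 3). Library size alone places every gene lower by a similar step, and leaving out ethanol replicate 3 moves Ppp1r3c to -1.82 and Ppp1r3g to 2.17.

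Ethanol replicate 3 was compared with the mean of ethanol replicates 1 and 2 on log2 CPM, with 0.5 added to each CPM. This is a description, since replicate 3 is a single library. Ppp1r3g was 12.0 times lower in it, a difference larger in size than that of 99.9% of the genes tested, and Ppp1r3c was 3.59 times higher, larger than that of 98.7%. Gys2, Ugp2 and Phka2 were 1.87, 1.91 and 1.93 times lower. Pygl (1.20 times lower), Gbe1 (1.30 times lower), Ppp1r3b (1.27 times higher) and Gyg1 (1.07 times higher) differed less. Over all genes tested the median size was 0.32 on the log2 scale and the 95th percentile 1.21. The neutrophil markers also moved with this library, at a sum of 17.6 (FPKM divided by the TMM factor) against 2.81 and 4.65 in ethanol replicates 1 and 2. The endothelial sum was higher too, at 34.8 against 16.5 and 22.3, but its members did not move together. In CPM, Lyve1 was at 69.3 against 24.2 and 33.3, and Stab1, Pecam1 and Clec4g were also highest in replicate 3. Stab2 lay between replicates 1 and 2, and Kdr was lowest in replicate 3, at 3.87 against 5.47 and 9.22. The part of these markers in the differences was not tested.

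**Figure D4:**
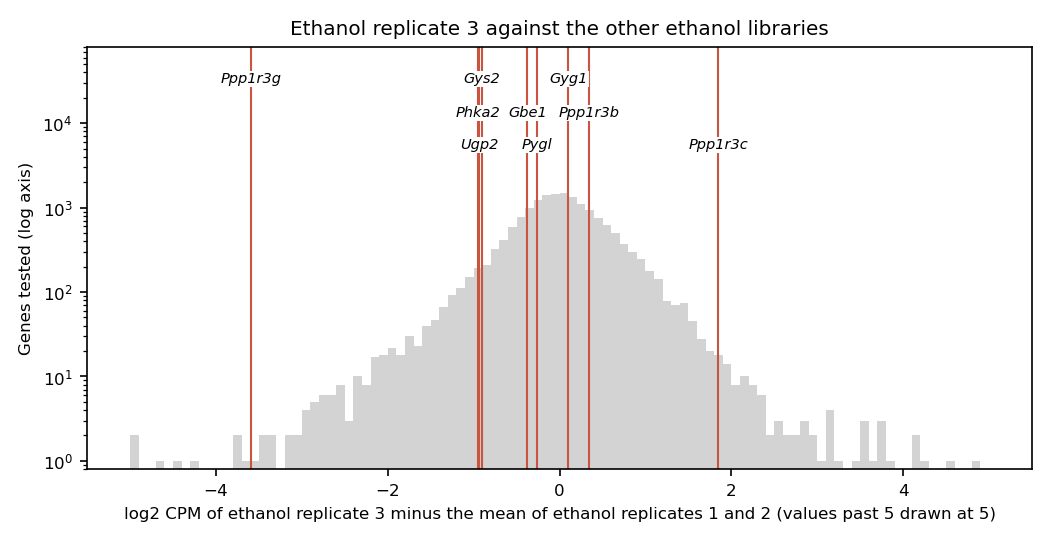
Histogram of the log2 CPM of ethanol replicate 3 minus the mean of ethanol replicates 1 and 2 over the genes tested (grey, number of genes on a log axis), with the 9 glycogen genes as red lines. Before the logarithm, 0.5 was added to each CPM. Ppp1r3g, at -3.59, and Ppp1r3c, at 1.84, lie in opposite tails.

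The promoters of Ppp1r3c and Ppp1r3g are shown because these genes changed in opposite directions and were past the DEG thresholds without ethanol replicate 3, a choice made after their values were seen. Sequences run from 250 bases before to 50 bases after the gene start in RefSeq on GRCm38.p6, in which 6 of the 9 genes had an entry. Each was searched on both strands for TGACG and TGACGTCA, letters of the cAMP response element of which the shorter lies in the longer, for the E-box CACGTG, and for the forkhead motif TGTTTAC. Capitals mark the matches.
Ppp1r3c, chr19:36736555-36736854, minus strand: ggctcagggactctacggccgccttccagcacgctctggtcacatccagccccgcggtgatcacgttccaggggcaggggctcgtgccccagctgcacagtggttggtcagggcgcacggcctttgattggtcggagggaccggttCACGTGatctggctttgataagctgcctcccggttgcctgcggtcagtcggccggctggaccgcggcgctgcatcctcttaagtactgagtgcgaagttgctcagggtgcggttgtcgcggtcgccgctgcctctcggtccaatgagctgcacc
Ppp1r3g, chr13:35967656-35967955, plus strand: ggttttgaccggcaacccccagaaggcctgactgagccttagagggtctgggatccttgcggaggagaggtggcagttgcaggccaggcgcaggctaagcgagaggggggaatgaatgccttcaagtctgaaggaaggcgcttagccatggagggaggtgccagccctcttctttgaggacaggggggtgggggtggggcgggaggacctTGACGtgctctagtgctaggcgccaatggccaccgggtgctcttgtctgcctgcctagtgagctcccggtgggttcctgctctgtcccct
Ppp1r3c held 1 CACGTG, whose first base lies at -104 from the start, and these letters were in 7.15% of 32851 promoters. Ppp1r3g held 1 TGACG at -40, as did Pygl at -44, and TGACG was in 20.8% of promoters. TGACGTCA (1.79% of promoters) and TGTTTAC (3.65%) were in none of the 7 windows of these 6 genes. A match describes the letters and is not a site of binding.

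The other genes of the system were taken from 5 lists of 42 genes in the table, of which 41 were tested. Of these, 9 rose, 9 fell and 23 did not pass the test, with 3 DEGs higher and 5 lower, and the median log2 fold change was -0.05. The 43.9% that passed and the 19.5% that were DEGs stand beside 43.0% and 24.2% of all genes. Genes annotated in the deposited table to the GO term glycogen metabolic process, which hold 6 of the 9 genes above, gave 11 higher and 10 lower of 37 tested (56.8%). For glycogen biosynthetic process, with 6 of the 9 genes, 7 of 22 were higher and 7 lower (63.6%), and for glycogen catabolic process, with Pygl, 5 of 14 were higher and 5 lower (71.4%). These terms overlap each other and the 5 lists, and the difference between the shares was not tested.

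**Figure D5:**
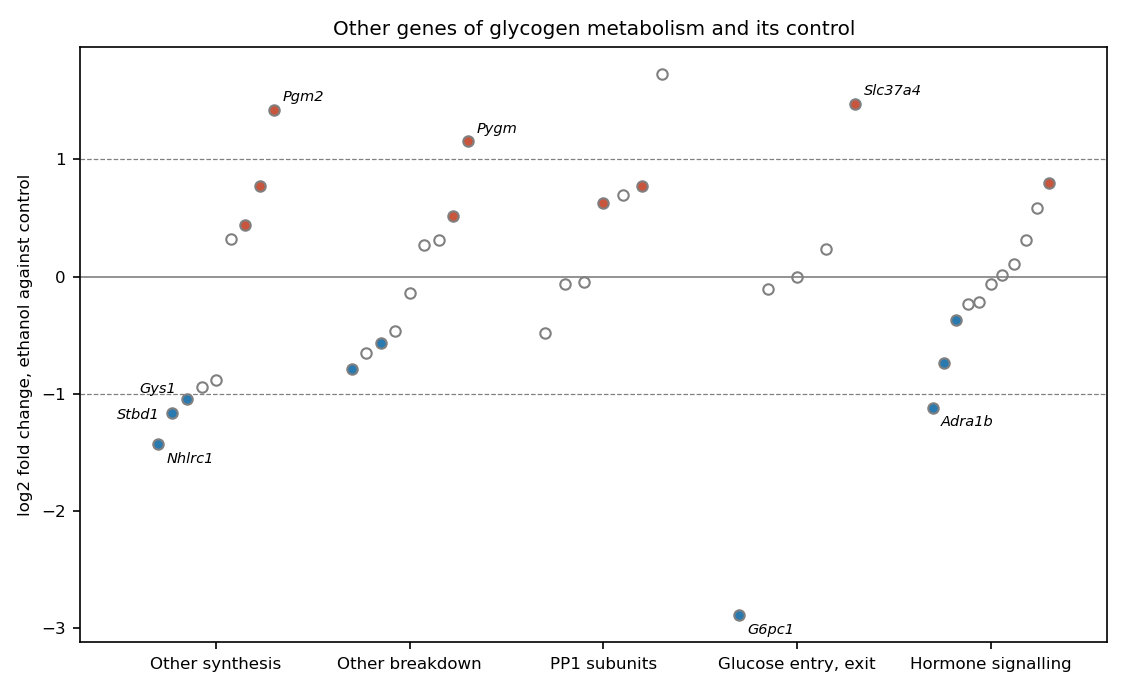
Log2 fold change of 41 other genes of glycogen metabolism and its control in 5 lists, ordered by value within a list (red, rose; blue, fell; open, adjusted p of 0.05 or more; dashed lines, the DEG threshold of 1). The 8 labelled genes are the DEGs, from Slc37a4 at 1.48 to G6pc1 at -2.89.

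Among 9 other genes of synthesis and glycogen quality, 3 rose and 3 fell. Stbd1, which tethers glycogen to membranes, was at 20.0 ± 3.12 CPM against 44.8 ± 2.57 CPM in control mice (SD, n = 3 per group) and fell by 1.16 (edgeR adjusted p = 0.000895). Nhlrc1, the ubiquitin ligase malin that limits abnormal glycogen, fell by 1.43 (adjusted p = 0.0199) from 1.37 to 0.510 CPM, but did not pass without control replicate 1 or 3 (adjusted p = 0.0777 and 0.0758). Gys1, the muscle type of synthase, fell by 1.04 (adjusted p = 0.0280), but did not pass without ethanol replicate 1, control replicate 1 or control replicate 2 (adjusted p = 0.0754, 0.101 and 0.0932). Gys2 made up 99.3% to 99.7% of the summed Gys1 and Gys2 FPKM in ethanol-exposed and 98.0% to 98.7% in control mice, so liver synthase was nearly all of the synthase RNA in both groups (exact p = 0.1, the smallest possible, adjusted p = 0.12). Pgm2 of the phosphoglucomutase family rose by 1.43 (adjusted p = 0.000888), or by 0.76 with library size alone, which is under the DEG threshold. Pgm1, the more abundant of the pair at 45.9 to 63.8 FPKM, rose by 0.44 (adjusted p = 0.0138) but was at -0.23 with library size alone, and did not pass without control replicate 2 or 3 (adjusted p = 0.0628 and 0.0710). Gsk3b, a kinase that inhibits the synthase, rose by 0.77 (adjusted p = 0.00184), but was at 0.11 (adjusted p = 0.485) with library size alone.

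Among 9 other genes of breakdown, 2 rose and 2 fell. Of the other subunits of phosphorylase kinase, the beta subunit Phkb fell by 0.56 (adjusted p = 0.0115, and 0.0505 without control replicate 3), and Phka1, the alpha subunit of muscle, was at -0.46 (edgeR adjusted p = 0.0711). Calm3, which encodes the calcium-binding calmodulin, the delta subunit, fell by 0.79 (adjusted p = 0.00123). Calm2, which also encodes it, was at 0.27 (adjusted p = 0.0609), or -0.40 (adjusted p = 0.00940) with library size alone. Calm2 rose by 0.32 without ethanol replicate 2 (adjusted p = 0.0493) and by 0.25 without ethanol replicate 3 (adjusted p = 0.0350). Phkg2, the catalytic subunit of liver, rose by 0.52 (adjusted p = 0.0393) but was at -0.16 with library size alone, and did not pass without ethanol replicate 1 (adjusted p = 0.0868) or any single control library (0.104 to 0.119). Pygm, the phosphorylase of muscle, rose by 1.16 (adjusted p = 0.0406) at 1.16 to 2.43 against 0.597 to 0.959 CPM, but did not pass without ethanol replicate 1 (adjusted p = 0.135) or any single control library (0.0773 to 0.128), and was at 0.48 (adjusted p = 0.296) with library size alone. The skeletal muscle markers Acta1, Ckm, Tnnt3 and Mb were near 0, with a sum of 0.0567 to 0.0676 FPKM in ethanol-exposed mice and 0 in all control mice, and Acta1 was at 0 in every library. Their part in the Pygm result was not tested. Pygb, the phosphorylase of brain, was at -0.65 (adjusted p = 0.0728). Pygl made up 95.6% to 97.7% of phosphorylase FPKM in ethanol-exposed and 97.8% to 98.5% in control mice (exact p = 0.1, the smallest possible, adjusted p = 0.12).

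Of 7 tested genes of PP1 and its partners, 2 rose, 0 fell and none was a DEG. The catalytic subunits Ppp1ca (log2 fold change -0.06, adjusted p = 0.665) and Ppp1cb (-0.05, adjusted p = 0.752) did not pass, while Ppp1cc rose by 0.63 (edgeR adjusted p = 0.0170) but was at -0.05 with library size alone, and did not pass when any 1 control library was left out (adjusted p = 0.0621 to 0.0655). Ppp1r2, an inhibitor of PP1, rose by 0.77 (adjusted p = 0.00209), but was at 0.11 (adjusted p = 0.490) with library size alone.

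At the entry and exit of glucose, G6pc1, the catalytic subunit of glucose-6-phosphatase, was at 152, 165 and 39.7 CPM in ethanol replicates 1, 2 and 3 and at 768, 940 and 929 CPM in control replicates 1, 2 and 3, a log2 fold change of -2.89 (edgeR adjusted p = 0.00374). Slc37a4, which carries glucose 6-phosphate to that enzyme, rose by 1.48 (adjusted p = 0.000349), or by 0.81 with library size alone, which is under the DEG threshold. Without ethanol replicate 3, G6pc1 was at -2.46.

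Of 11 genes of hormone signalling to glycogen, 1 rose and 3 fell. Adra1b, an adrenergic receptor whose calcium signal activates phosphorylase kinase, was at 44.5, 46.4 and 40.2 CPM in ethanol replicates 1, 2 and 3 and at 102, 92.6 and 89.2 CPM in control replicates 1, 2 and 3, and fell by 1.12 (edgeR adjusted p = 0.000423). Gcgr, the glucagon receptor, was at 0.02 (adjusted p = 0.940) and Insr, the insulin receptor, at -0.21 (adjusted p = 0.442), and neither passed the test. With library size alone both fell, Gcgr by 0.64 (adjusted p = 0.0225) and Insr by 0.89 (adjusted p = 0.00846). Without ethanol replicate 3, Insr fell by 0.48 (adjusted p = 0.00603), whereas without replicate 1 or 2 it was at -0.057 and -0.14 (adjusted p = 0.839 and 0.674). Akt2, a kinase downstream of the insulin receptor, fell by 0.37 (adjusted p = 0.0186), but did not pass without ethanol replicate 1, control replicate 1 or control replicate 2 (adjusted p = 0.0501, 0.0679 and 0.0781). Of the regulatory subunits of protein kinase A, Prkar1a rose by 0.80 (adjusted p = 0.00138) and Prkar2a fell by 0.74 (adjusted p = 0.00138). With library size alone, Prkar1a was at 0.13 (adjusted p = 0.362) and Prkar2a at -1.41.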

How the data were processed

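Liver RNA from 6 mice was sequenced as paired-end reads. The authors removed adaptor, low-quality and ambiguous reads and aligned the rest; the aligner, the counting tool and the use of strand are not given in the sources used here. The authors deposited whole-number counts per Ensembl gene, not normalized, and FPKM values, scaled to transcript length and library size. The submitters' processing notes name GRCm38 and mm10, but only 502 of 27049 shared gene IDs have the coordinates of GENCODE M21 on GRCm38, and 0 of the 9 members. Gene coordinates are therefore given as in the deposited table, without a build. The table also held 1 column that matches no labelled library and was not used.

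Counts were analysed in R 4.3.3 with edgeR 4.0.16 (filterByExpr, TMM, quasi-likelihood test, no covariates). Fold changes are fitted values. The alternatives were other scalings, no filter, DESeq2 1.42.0, limma 3.58.1 on log2(FPKM + 1) or log2(FPKM + 0.1) with a mean FPKM of at least 0.1 or without that filter, the replicate number as a block, and each library left out in turn. Ratios and shares within a library were compared by exact permutation tests. The shares of Gys2, Pygl, Ppp1r3c and Ppp1r3g, and sums of FPKM divided by the TMM factor, were added after seeing the data. The square root of the common dispersion was 0.299. Counts were also simulated with 200 genes changed, each by more than any member that passed, and with the TMM-corrected library sizes built in. On these, edgeR recovered 122 of the 185 changed genes it tested (65.9%) with 10 false calls. Far more genes passed in the data themselves (43.0%), so these rates do not carry over to the members or to the scaling.

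The members and lists were chosen with earlier results of these data known. The genes named were the 9 members, the DEGs of 5 pathway lists, the direct partners or paralogs of members, and the receptors Gcgr and Insr. Other genes that passed were chosen after their values were seen. Some genes of these lists are not reported here and do not enter the list counts. Of the members, Pygl, Ugp2, Ppp1r3b, Ppp1r3g and Phka2 overlap a gene on the opposite strand in the table. These neighbours had at most 181 counts in a library, for Gm30127 beside Ppp1r3g. No 2 libraries of a group agreed within sampling noise, with a chi-square statistic of 49.6 to 496 per degree of freedom. Nothing in the labels pairs mice of the same number.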

Additional observations from a re-analysis of the deposited data

How the results depend on the processing

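Whether Gys2 and Ppp1r3b were called depended on the scaling, while Pygl and Gyg1 fell under each scaling. With library size alone 7.39% of all genes rose and 48.3% fell, with the median of all genes moved by -0.67, and 0 members rose, 5 fell (Pygl, Gbe1, Gyg1, Phka2 and Ppp1r3c) and 3 were DEGs (37.3% of all genes). The shift was -0.26 with limma on log2(FPKM + 1), where 0 members rose, 5 fell and 2 were DEGs beside 7.49%, 51.4% and 13.3% of all genes, and -0.57 on log2(FPKM + 0.1), where 0 rose, 5 fell and 3 were DEGs beside 7.68%, 51.2% and 35.7%. With limma and no filter 0 rose, 4 fell and 2 were DEGs beside 4.25%, 31.2% and 7.83%. Gbe1, near 0 and not called, changed sign with upper quartile scaling (-0.074), library size alone (-0.64), no filter (-0.012) and limma (-0.60, -0.65 and -0.60). Ugp2 did so with library size alone (-0.45) and limma (-0.52, -0.53 and -0.52). Leaving out 1 library at a time, 2 to 4 members rose, 1 to 3 fell and 0 to 3 were DEGs, beside 14.5% to 24.7%, 13.5% to 27.4% and 18.5% to 27.4% of all genes, of which 4854 to 9178 passed. Among the other pathway genes, Gsk3b (0.11), Ppp1r2 (0.11), Prkar1a (0.13) and Pygm (0.48) kept their direction but did not pass with library size alone. Pygm and Phkg2 also did not pass with upper quartile scaling (adjusted p = 0.0569 and 0.0745) or no filter (adjusted p = 0.0642 and 0.0742). Gys2 ended just under the DEG threshold without ethanol replicate 2 (0.97). With a library left out, Gbe1 ran from -0.10 to 0.15 and Phka2 from -0.32 to 0.12. Same-numbered mice did not deviate together (correlations of -0.044, -0.0336 and -0.00697 over genes), which cannot exclude a pairing with a small effect or an effect on few genes. With the replicate block 5776 of all genes and 1 member lower passed, as Gyg1 lost its call (adjusted p = 0.0599), and so did Nhlrc1 (0.0570), Akt2 (0.0646), Gys1 (0.0737), Phkg2 (0.0747) and Pygm (0.0981). The smallest p of an exact test of 3 against 3 is 0.1, so those tests could not pass. For the calls that changed with a left-out library or the block, the cause was not tested.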
